A study of Mus musculus with 6 samples.

Results

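Both libraries of PLAGL2 clone 3 were set against both libraries of PLAGL2 clone 1, so 4 of the 6 libraries of the series carry the comparison and 16314 of the 40769 genes in the gene table were tested. The lines were C57BL/6 small intestinal enteroids, epithelial cultures grown from the intestine in Matrigel and kept in a serum-free medium that the labels call ENR. Each had received a piggyBac transposon, a piece of DNA that a transposase inserts into the genome. Clone 3 carried constitutive PLAGL2 at a level that the labels call high. Clone 1 carried constitutive PLAGL2 at a level that they call low. The third line carried constitutive GFP, and its 2 libraries serve here only to estimate the spread and as values beside those of the clones. Every line was sampled at passage 5 and again at passage 7, and libraries were paired by passage. Each line is 1 transfected culture, so no p-value measures a spread between independent cultures. With passage as a term, the spread is how far the differences between lines disagree between the 2 passages. Without that term it is the spread between passages of a line. What differs between these clones because of the PLAGL2 level cannot be told apart from what differs between any 2 separately grown lines. In the sentences that follow, paired values are those of passage 5 and passage 7, in that order.

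PLAGL2 belongs to the PLAG family of zinc finger transcription factors. Its members bind a bipartite GC-rich element and are best known for activating growth-related genes such as the imprinted Igf2. The intestinal epithelium renews itself from Lgr5-positive stem cells at the crypt base. Their progeny become absorptive enterocytes or, when Atoh1 is switched on, secretory cells: goblet cells that make mucus, Paneth cells that make defensins and lysozyme, and enteroendocrine cells that make gut hormones and depend on Neurog3.

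Plagl2 itself had an RPKM, reads scaled to gene length and library depth, of 37.2 and 37.2 in clone 3, 30.9 and 26.5 in clone 1, and 22.8 and 23.1 in GFP. The order of the lines followed their labels and no values overlapped between lines. The log2 difference, clone 3 minus clone 1, was 0.37 with a standard error (SE) of 0.07, and it did not pass the test (adjusted p = 0.203). On reads recovered from the RPKM values, a setting chosen after seeing the data, the same gene passed (adjusted p = 0.0217). Both listed transcripts were higher in clone 3 than in clone 1 at each passage, by a larger ratio for Plagl2-002 than for Plagl2-001. Plagl2-002 had an RPKM of 4.26 and 3.91 in clone 3, 2.26 and 2.02 in clone 1, and 2.003 and 2.19 in GFP. Plagl2-001 had 13.8 and 13.6 in clone 3, 12.7 and 11.8 in clone 1, and 12.4 and 12.5 in GFP. The labels do not say which transcript or species' sequence the transposon carried.

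The cultures looked epithelial in every library. All 9 epithelial markers were tested and none was called between the clones. Epcam, an epithelial adhesion molecule, had an RPKM of 485 and 511 in clone 3, 478 and 536 in clone 1, and 512 and 554 in GFP. Of 13 fibroblast markers 2 were high enough to test, and the whole list summed to an RPKM of 7.93 to 11.5 in clone 3, 6.03 to 7.87 in clone 1 and 6.01 to 9.27 in GFP. Most of that sum was Vim, and the matrix genes Col3a1, Dcn and Lum were listed at 0 in all 6 libraries. Of 16 immune markers 6 were tested, with sums of 6.25 to 9.31 in clone 3, 8.20 to 8.45 in clone 1 and 6.62 to 9.17 in GFP. Cd68 and Cd52 had the highest levels of those tested. Of the 16, 4 were at 0 throughout, Cd3d, Cd4 and Itgax among them. None of 8 endothelial markers was high enough to test. None of the 2 fibroblast, 6 immune and 5 muscle and nerve markers tested was called. The part of other cell types in the differences below was not tested. Recovered depth ran from 13779306 to 17319950 reads per library.

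With limma-trend on log2(RPKM + 0.5) and Benjamini-Hochberg adjustment over all tested genes, 23 genes were higher in clone 3 than in clone 1 (0.141% of those tested) and 24 were lower (0.147%), 47 in all (0.288%). At an unadjusted p under 0.05 there were 1027 higher (6.3%) and 893 lower (5.47%). All 47 had the same sign in both passage pairs. The fit has 2 residual degrees of freedom, and the calls lean on the passage block: 4 of the 47 also passed without it, namely Ifitm3, Ddx3y, Gm21887 and Cyp2w1. With voom on the recovered reads, which also models counting error, 44 of the 47 passed, among 255 higher (1.57%) and 188 lower (1.16%) of 16219 genes. Leaving out any 1 of the 6 libraries left 1 residual degree of freedom and no gene called higher. Lower calls numbered 3 when either clone 3 library was left out, 0 for either clone 1 library, and 4 and 1 for GFP at passages 5 and 7, while 589 to 1454 higher and 498 to 1407 lower genes kept an unadjusted p under 0.05. Of all tested genes 52.8% had a log2 difference above 0 and 47.1% below, with a median of 0.0095. The list counts that follow are to be read beside these shares. Below, a gene is called by limma-trend with the passage block unless voom or another setting is named.

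**Figure D1:**
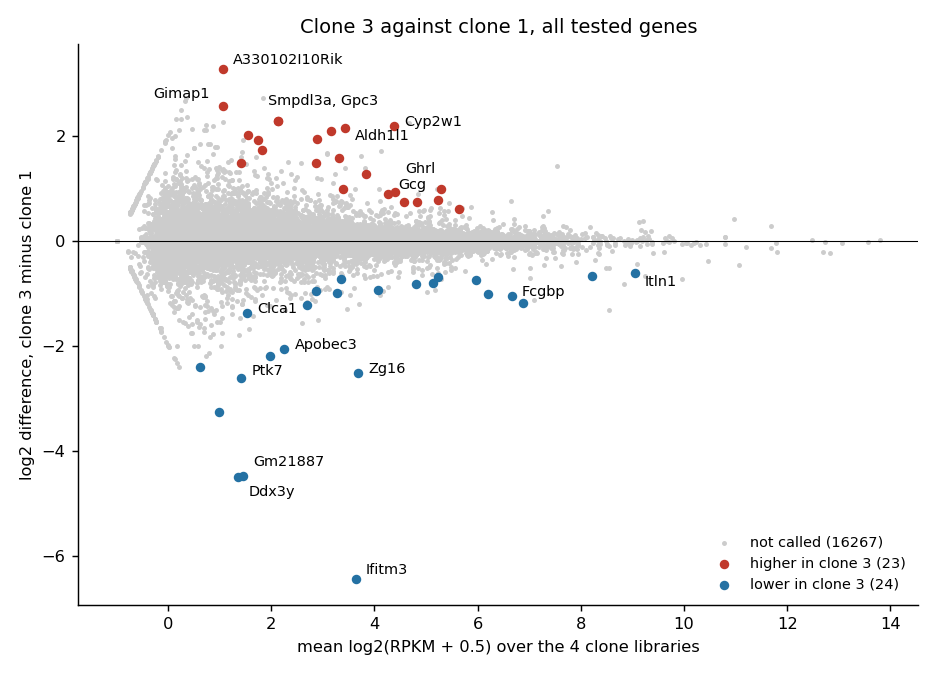
Each point is a gene, with its mean log2(RPKM + 0.5) over the 4 clone libraries on the x axis and the log2 difference, clone 3 minus clone 1, on the y axis. The 23 genes called higher in clone 3 are red and the 24 called lower are blue, and Ifitm3 lies lowest at -6.45.

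Genes of goblet cells were lower in clone 3. Of 31 tested members of the goblet cell list, 30 had a log2 difference below 0 (96.8%, against 47.1% of all tested genes). Among them 5 were called lower and none higher, beside 24 (0.147%) and 23 (0.141%) over all tested genes. The median was -0.61, against 0.0095 over all tested genes, and 21 members had an unadjusted p under 0.05 in the lower direction and none in the higher. In bulk RNA, fewer cells of a type and less RNA per cell cannot be told apart.

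Zg16, a lectin that goblet cells secrete into mucus, had an RPKM of 8.40 and 2.71 in clone 3, 50.2 and 18.03 in clone 1, and 255 and 83.4 in GFP. At each passage clone 3 was lowest and GFP highest, and in each line passage 5 was higher than passage 7, so that the lines are told apart within a passage. The log2 difference was -2.52 (SE 0.06, adjusted p = 0.00192, or 0.742 without the passage block). Clca1, a secreted protease that works on the mucus layer, had 2.004 and 0.768 in clone 3, 6.26 and 2.65 in clone 1, and 38.3 and 17.1 in GFP. It shared the passage change, with a log2 difference of -1.37 (SE 0.08, adjusted p = 0.0281, or 0.999 without the block).

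Fcgbp, a large protein bound into mucus beside Muc2, had an RPKM of 70.4 and 68.9 in clone 3, 147 and 143 in clone 1, and 263 and 214 in GFP. The lines did not overlap at either passage, and the log2 difference was -1.05 (SE 0.08, adjusted p = 0.0471, or 0.0997 without the block). Creb3l1, a membrane-bound transcription factor of secretory cells, fell by 0.99 on the log2 scale (adjusted p = 0.0475, or 0.734 without the block), with 4.98 and 8.03 in clone 3 and 10.5 and 16.4 in clone 1. Agr2, an endoplasmic reticulum protein needed to fold Muc2 and a member of both the goblet and the Paneth list, had 46.2 and 49.5 in clone 3, 77.3 and 84.5 in clone 1, and 110 and 106 in GFP. Its log2 difference was -0.75 (adjusted p = 0.0475, or 0.105 without the block).

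Several genes that define the lineage also had lower values in clone 3 than in clone 1 but missed the threshold. Muc2, the gel-forming mucin itself, had an RPKM of 25.6 and 25.8 in clone 3, 52.5 and 46.9 in clone 1, and 112 and 81.1 in GFP (adjusted p = 0.108). Tff3, a trefoil peptide secreted with mucus, had 325 and 367 in clone 3, 642 and 584 in clone 1, and 923 and 745 in GFP (adjusted p = 0.145). Spdef and Atoh1 are the transcription factors of goblet maturation and of the secretory choice. Spdef had 6.06 and 7.91 in clone 3, 9.74 and 12.02 in clone 1, and 10.2 and 11.1 in GFP (adjusted p = 0.127). Atoh1 had 4.91 and 5.91 in clone 3, 7.99 and 9.12 in clone 1, and 10.8 and 10.8 in GFP (adjusted p = 0.132). For each of these 4 genes the 2 libraries of clone 3 lay below both of clone 1. Without the passage block no goblet, Paneth or enteroendocrine gene was called. With voom 14 of the 31 goblet genes were called lower and none higher, beside 1.16% and 1.57% of all genes in that fit. Muc2, Tff3, Spdef and Atoh1 were among the 14.

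Genes of Paneth cells were also lower in clone 3, by a smaller number of calls. Of 27 tested members 23 had a difference below 0 (85.2%, against 47.1% of all tested genes), and the median was -0.53. There were 3 called lower and none higher, beside 0.147% and 0.141% of all tested genes. The called members were Agr2, Itln1 and Defa26. At an unadjusted p under 0.05, 18 were lower and 1 higher, beside 5.47% and 6.3% of all tested genes. With voom 10 of the 27 were called lower and 1 higher, beside 1.16% and 1.57% of all genes in that fit. Itln1, the lectin intelectin-1, had an RPKM of 411 and 437 in clone 3, 636 and 669 in clone 1, and 702 and 759 in GFP. Clone 3 lay apart from both other lines, with a log2 difference of -0.62 (SE 0.05, adjusted p = 0.0475, or 0.385 without the block). Defa26, an alpha-defensin, had 23.7 and 29.1 in clone 3, 44.7 and 47.7 in clone 1, and 37.9 and 45.3 in GFP (log2 difference -0.80, adjusted p = 0.0475, or 0.252 without the block).

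Outside the list, Gm14851 and Gm15284, predicted genes that lie beside the defensins on chromosome 8 (chr8:21095074-21096050 and chr8:21134642-21135598), were called lower too, at -1.18 and -0.67. Alpha-defensin genes are near-identical copies, so that reads could have been split between them, and the values of these 3 genes are uncertain one by one. Lyz1, the Paneth cell lysozyme, had an RPKM of 198 and 284 in clone 3, 550 and 636 in clone 1, and 704 and 740 in GFP, and just missed the threshold (adjusted p = 0.052). Fgfrl1, a receptor without a kinase domain, was 1 of the 4 listed Paneth genes with a value above 0: it had 20.7 and 30.2 in clone 3, 15.5 and 19.004 in clone 1, and 8.37 and 10.2 in GFP (adjusted p = 0.147). Mmp7, the protease that activates defensins in mice, had 26.7 and 34.8 in clone 3, 41.3 and 47.1 in clone 1, and 34.8 and 46.5 in GFP (adjusted p = 0.12).

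Genes of enteroendocrine cells went the other way. Of 33 tested members 31 had a difference above 0 (93.9%, against 52.8% of all tested genes), and the median was 0.50. There were 2 called higher and none lower, beside 0.141% and 0.147% of all tested genes. At an unadjusted p under 0.05, 19 members were higher and 1 lower, beside 6.3% and 5.47% of all tested genes. Gcg, the precursor of glucagon and GLP-1, had an RPKM of 15.7 and 41.5 in clone 3, 8.23 and 22.5 in clone 1, and 16.3 and 41.6 in GFP. Clone 3 and GFP had nearly the same values and clone 1 was lower at both passages, with a log2 difference of 0.88 between the clones (SE 0.05, adjusted p = 0.0207, or 1 without the block). Ghrl, which encodes ghrelin, had 23.7 and 34.5 in clone 3, 12.1 and 17.95 in clone 1, and 17.5 and 23.8 in GFP. Its log2 difference was 0.93 (SE 0.05, adjusted p = 0.0238, or 0.668 without the block), and clone 3 was highest within each passage.

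The factors that set up this lineage had values above 0 and were not called. Neurog3, the factor that starts the enteroendocrine program, had an RPKM of 9.90 and 18.1 in clone 3, 7.198 and 9.80 in clone 1, and 6.49 and 9.10 in GFP (log2 difference 0.64, adjusted p = 0.198). Pax4, which acts after it, had 1.90 and 2.24 in clone 3, 0.768 and 1.09 in clone 1, and 1.29 and 1.41 in GFP (adjusted p = 0.175). The pan-endocrine granule genes were similar. Chga had 36.4 and 63.1 in clone 3, 28.9 and 39.6 in clone 1, and 32.03 and 43.5 in GFP (adjusted p = 0.211). Scg2 had 2.10 and 4.14 in clone 3, 0.918 and 1.65 in clone 1, and 1.51 and 2.68 in GFP (adjusted p = 0.126). Sst, the somatostatin gene of D cells, was the member with the lowest difference: it had 1.30 and 1.88 in clone 3, 2.41 and 4.76 in clone 1, and 3.52 and 6.18 in GFP (adjusted p = 0.156). With voom 12 of the 33 were called higher and none lower, beside 1.57% and 1.16% of all genes in that fit. Neurog3, Chga, Pax4 and Scg2 were among the 12.

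**Figure D2:**
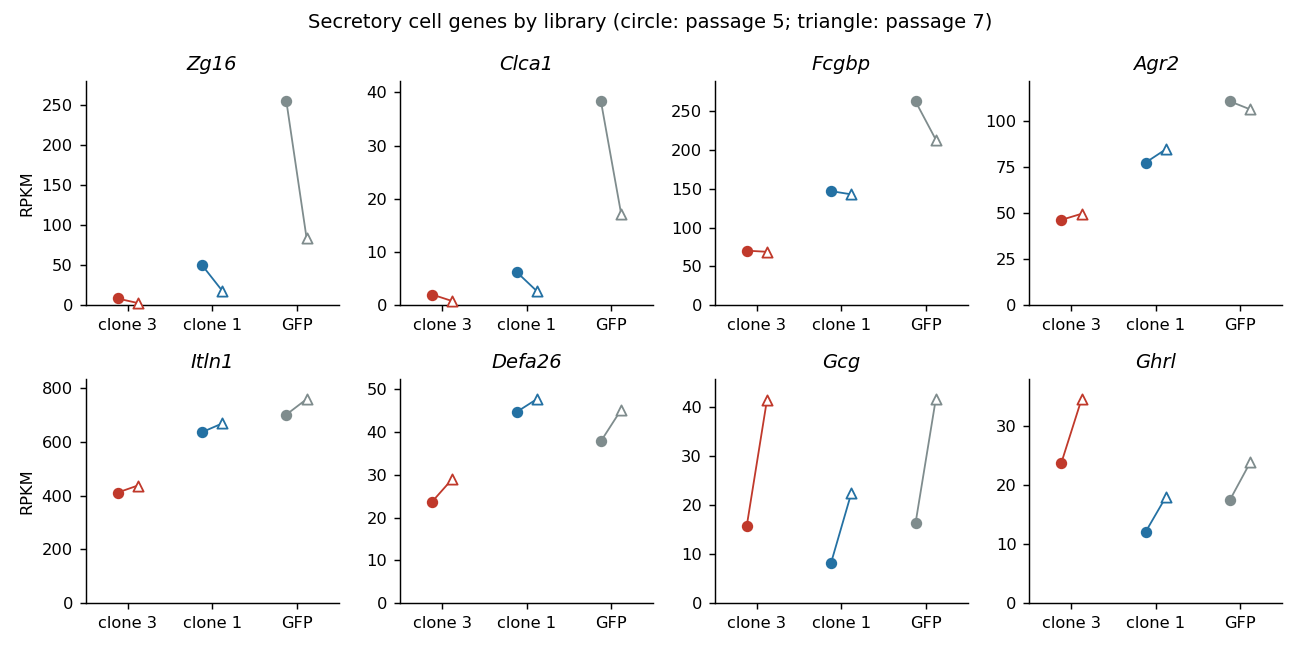
RPKM on a linear axis from 0 in each library for the genes called in the goblet and Paneth lists apart from Creb3l1, and in the enteroendocrine list, with the lines on the x axis, passage 5 as circles and passage 7 as triangles. Fcgbp lies near 69 to 70 in clone 3 and at 143 to 147 in clone 1, and Gcg is lower in clone 1 than in the other lines at each passage.

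The remaining lineages held no called gene. For the tuft cell list, chemosensory cells, 15 of 21 tested members were below 0 with a median of -0.13. Its highest members by level were Cd24a, with an RPKM of 115 and 179 in clone 3 and 163 and 198 in clone 1, and the taste receptor subunit Tas1r3, with 3.95 and 4.73 in clone 3 and 3.82 and 4.08 in clone 1. For enterocytes 18 of 37 tested members were above 0 and 19 below, with a median of -0.0081. With voom 2 of them were called higher and 3 lower. Fabp1, a fatty acid carrier, had 2520 and 1309 in clone 3 and 3583 and 1740 in clone 1. It was higher at passage 5 than at passage 7 in each clone. Lct, the gene of lactase, had 67.8 and 24.6 in clone 3, 42.2 and 17.6 in clone 1, and 8.70 and 3.13 in GFP (log2 difference 0.58, adjusted p = 0.0879).

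Stem cell genes did not shift in 1 direction as a list. Of 30 tested members 16 were above 0 and 14 below, none was called, and the median was 0.046. Single members moved both ways, with log2 differences from -1.30 to 1.02. At an unadjusted p under 0.05, 8 were higher and 7 lower, beside 6.3% and 5.47% of all tested genes. With voom 1 was called higher and 2 lower, Lrig1 among the lower. Lrig1, whose values are given with the EGF family, had a log2 difference of -0.26 (adjusted p = 0.242, or 0.0421 with voom). Olfm4, a secreted stem cell marker, had an RPKM of 845 and 1407 in clone 3 and 906 and 1481 in clone 1. Slc12a2, an ion cotransporter high in crypt cells, had 184 and 285 in clone 3 and 164 and 223 in clone 1. Lgr5, the R-spondin receptor that marks these cells, had 39.2 and 75.6 in clone 3, 38.8 and 55.0 in clone 1, and 25.7 and 41.2 in GFP, so that the clones overlapped. Ascl2, a factor that stem cells need, had 15.2 and 37.8 in clone 3, 13.9 and 20.7 in clone 1, and 7.55 and 14.2 in GFP. Tert, the catalytic subunit of telomerase, had 9.72 and 9.72 in clone 3, 5.44 and 4.61 in clone 1, and 4.71 and 4.72 in GFP. Clone 3 stood apart from the other lines for Tert, which came closest to the threshold among the stem cell genes named here (log2 difference 0.89, adjusted p = 0.0756).

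**Figure D3:**
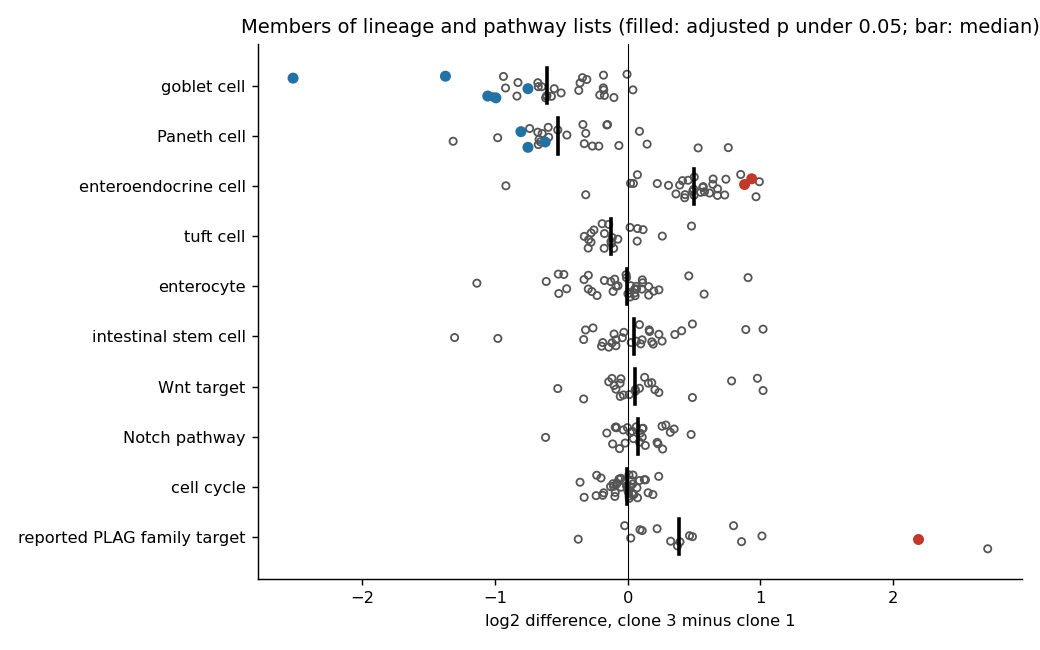
Each point is a tested member of the list named on the y axis, placed by its log2 difference, clone 3 minus clone 1, with called genes filled (red higher, blue lower in clone 3) and the median as a bar. Goblet and Paneth members lie mostly left of 0, with medians of -0.61 and -0.53, and enteroendocrine members mostly right of it, with a median of 0.50.

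Among genes that others have reported as PLAG family targets, 14 of 16 tested members were above 0 (87.5%, against 52.8% of all tested genes). At an unadjusted p under 0.05, 9 were higher and 1 lower, beside 6.3% and 5.47% of all tested genes. The median was 0.38, and 1 was called higher and none lower, beside 0.141% and 0.147% of all tested genes. The called gene was Cyp2w1, a cytochrome P450 known from the fetal gut and from colon tumours. It had an RPKM of 41.3 and 46.7 in clone 3, 8.52 and 9.98 in clone 1, and 1.27 and 1.30 in GFP. The lines formed 3 separate steps at both passages, and the log2 difference between the clones was 2.19 (SE 0.08, adjusted p = 0.00976, or 0.0234 without the block). H19, an imprinted non-coding RNA, had 6.53 and 11.5 in clone 3, 0.876 and 0.929 in clone 1, and 0.0254 and a listed 0 in GFP (log2 difference 2.71, adjusted p = 0.0628). Igf2, its imprinted neighbour and a fetal growth factor, had 0.965 and 1.02 in clone 3, 0.242 and 0.238 in clone 1, and 0.126 and 0.241 in GFP (adjusted p = 0.215). Cdkn1c, an imprinted inhibitor of cyclin-dependent kinases, had 8.70 and 7.35 in clone 3, 4.13 and 4.66 in clone 1, and 2.84 and 3.04 in GFP (adjusted p = 0.147). In all 3 of these imprinted genes both clone 3 libraries lay above both of clone 1. With voom all 3 passed, and 5 of the 16 list members were called higher and none lower. The shares of all genes in that fit were 1.57% and 1.16%. Plagl1, a PLAG family gene that is itself imprinted, had 2.05 and 2.01 in clone 3, 1.13 and 1.48 in clone 1, and 0.636 and 0.936 in GFP (adjusted p = 0.393).

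The list of let-7 targets and oncofetal genes shares H19 and Igf2 with the list above. Of its 20 tested members 16 were above 0 (80%, against 52.8% of all tested genes), with a median of 0.22. The list had 6 genes called higher and none lower with voom, beside 1.57% and 1.16% of all genes in that fit. By limma-trend it had 1 and none, beside 0.141% and 0.147% of all tested genes. Its called gene was Gpc3, a heparan sulfate proteoglycan of the cell surface that is abundant in fetal tissue. Gpc3 had an RPKM of 8.92 and 9.39 in clone 3, 1.48 and 1.52 in clone 1, and 0.157 and 0.0809 in GFP. The lines did not overlap, and the GFP values rested on 7 and 3 reads, with a log2 difference of 2.27 (SE 0.14, adjusted p = 0.0281, or 0.0516 without the block). All 7 tested glypicans and syndecans had a difference above 0, with a median of 0.38, and Gpc3 was the 1 called. Sdc2, another heparan sulfate proteoglycan, had 2.28 and 2.87 in clone 3, 0.521 and 0.917 in clone 1, and 0.0544 and 0.306 in GFP (adjusted p = 0.12).

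Wnt signalling, which maintains the crypt, held no called gene. Of 23 tested Wnt targets 13 were above 0, with a median of 0.059, and of 20 tested ligands and receptors 12 were above 0, with a median of 0.049. With voom 1 target was called higher and 1 lower, and 3 ligands and receptors were called higher and none lower. Ccnd2, a cyclin, had an RPKM of 138 and 113 in clone 3 and 121 and 119 in clone 1. Cldn2, a claudin of crypt cells, had 91.9 and 104 in clone 3 and 89.5 and 105 in clone 1. The receptor Fzd5 had 68.1 and 55.8 in clone 3 and 63.8 and 65.3 in clone 1, and the coreceptor Lrp6 had 27.9 and 31.1 in clone 3 and 28.4 and 30.1 in clone 1. In each of these 4 genes the clones overlapped. Wnt5a, a ligand best known for signalling without beta-catenin, was the member with the highest difference: 1.40 and 1.34 in clone 3, 0.0960 and 0.182 in clone 1, and 0.0385 and 0.0649 in GFP (log2 difference 1.55, adjusted p = 0.132, or 0.00126 with voom).

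Notch signalling, which holds back the secretory choice, had 18 of 28 tested members above 0, none called and a median of 0.077. The highest member described here is Olfm4, whose values are given with the stem cell genes. Cell cycle genes were balanced, with 18 of 40 above 0, none called and a median of -0.0069. Mki67 had 93.5 and 118 in clone 3 and 93.4 and 116 in clone 1, and Top2a had 59.0 and 86.1 in clone 3 and 58.4 and 73.0 in clone 1. Of 30 p53 targets 21 were above 0, none was called and the median was 0.13. The unadjusted p was below 0.05 for 8 that rose and 1 that fell, against 6.3% and 5.47% of all tested genes. With voom 2 were called higher and 1 lower. Eda2r had the lowest log2 difference, at -1.15 (adjusted p = 0.108, or 0.00127 with voom). It had 0.560 and 0.698 in clone 3 and 1.86 and 2.16 in clone 1. Phlda3 had the highest, at 0.77 (adjusted p = 0.419). It had 5.16 and 13.1 in clone 3 and 4.37 and 4.90 in clone 1. Ephx1, an epoxide hydrolase, had 89.2 and 65.3 in clone 3 and 86.6 and 54.5 in clone 1, and Perp, a desmosome protein, had 69.9 and 55.2 in clone 3 and 72.2 and 61.5 in clone 1.

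Further pathway lists held no called gene either. Of 31 genes listed for cholesterol synthesis 25 were below 0 by small amounts, with a median of -0.089. Scd2, a fatty acid desaturase on that list, was above 0 (log2 difference 0.058). It had an RPKM of 658 and 504 in clone 3 and 642 and 476 in clone 1. Hmgcs1, an early enzyme of cholesterol synthesis, had 239 and 143 in clone 3 and 233 and 161 in clone 1. For fetal-like and YAP target genes, linked to repair, 8 of 16 were above 0 with a median of -0.11. Wwc1 had 26.7 and 23.4 in clone 3 and 28.3 and 22.04 in clone 1, and Krt7, a keratin, had 11.7 and 15.7 in clone 3 and 24.8 and 26.3 in clone 1 (adjusted p = 0.0824). In the EGF family 7 of 19 were above 0 with a median of -0.022. Lrig1, which restrains EGF receptors, had 68.1 and 92.7 in clone 3 and 86.6 and 105 in clone 1, and the receptor Erbb3 had 71.1 and 68.8 in clone 3 and 73.2 and 67.2 in clone 1. In the BMP and Hedgehog list 10 of 17 were above 0 with a median of 0.048. Bmp3 had 41.8 and 39.5 in clone 3 and 39.8 and 50.4 in clone 1, and the receptor Bmpr1a had 28.6 and 34.5 in clone 3 and 32.4 and 32.2 in clone 1. For regional identity, 12 of the 18 tested genes of gastric and colonic identity were above 0 and none was called, with log2 differences from -0.98 to 0.70. At an unadjusted p under 0.05, 4 were higher and 2 lower, and with voom 2 were called higher and 2 lower. The transcription factor Hnf4a had 290 and 276 in clone 3 and 257 and 257 in clone 1, and the transcription factor Cdx1 had 111 and 103 in clone 3 and 85.0 and 99.3 in clone 1.

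The interferon response list held 1 called gene of 21, which was lower, beside 0.147% called lower of all tested genes. That gene had the largest difference of all those tested. Ifitm3, a membrane protein that blocks the entry of many viruses, had an RPKM of 0.620 and 1.08 in clone 3, 97.3 and 137 in clone 1, and 0.888 and 1.39 in GFP. Only clone 1 was high, and clone 3 lay beside GFP. In reads these were 7 and 11 in clone 3, 1143 and 1435 in clone 1, and 10 and 13 in GFP. The log2 difference was -6.45 (SE 0.07, adjusted p = 0.000366, or 0.00627 without the block). The neighbouring and similar Ifitm2 had 149 and 175 in clone 3, 134 and 179 in clone 1, and 125 and 161 in GFP, with clones overlapping. The list's median was 0.056, and 14 of its 21 tested members were above 0.

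In the 4 called falls described next, which are not the next by size, clone 3 lay below both other lines at each passage. Ptk7, a receptor-like pseudokinase of planar cell polarity, had an RPKM of 0.310 and 0.935 in clone 3, 4.61 and 7.96 in clone 1, and 3.20 and 6.00 in GFP. Both other lines were above clone 3 at each passage (log2 difference -2.61, adjusted p = 0.0117, or 0.232 without the block). Apobec3, a cytidine deaminase that restricts retroviruses, had 1.58 and 2.08 in clone 3, 8.48 and 10.1 in clone 1, and 10.4 and 11.5 in GFP. Its 4 clone 1 and GFP libraries lay far above clone 3 (log2 difference -2.07, adjusted p = 0.0117, or 0.0516 without the block). Rhbdl2, a rhomboid protease of the membrane, had 0.0586 and 0.302 in clone 3, 2.95 and 3.17 in clone 1, and 3.63 and 3.66 in GFP (log2 difference -2.41, adjusted p = 0.0471, or 0.0646 without the block). Akr1b8, an aldo-keto reductase, had 3.92 and 3.54 in clone 3, 11.02 and 7.997 in clone 1, and 17.9 and 14.8 in GFP, with the lines in 3 steps (log2 difference -1.23, adjusted p = 0.0475, or 0.195 without the block).

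Further named falls were Pllp, which encodes the membrane protein plasmolipin, at -0.96, and Rnase1, a secreted ribonuclease, at -0.83. Rnase1 had an RPKM of 18.6 and 22.6 in clone 3, 33.7 and 40.0 in clone 1, and 33.2 and 39.7 in GFP, so that clone 1 and GFP were alike in level (adjusted p = 0.0176, or 0.31 without the block). Erdr1 had 1.44 and 1.24 in clone 3, 7.81 and 8.01 in clone 1, and 3.27 and 4.71 in GFP (log2 difference -2.19, adjusted p = 0.0475, or 0.064 without the block). Gm21887, on the X chromosome, had a listed 0 and 0.175 in clone 3, 10.7 and 14.5 in clone 1, and 5.55 and 8.13 in GFP (adjusted p = 0.00192, or 0.0236 without the block). Erdr1 lies in the pseudoautosomal region that X and Y share, and Gm21887 lies near the end of X, so that reads may be split between copies and both values are uncertain. Gm21887 was chosen after its values were seen, as a predicted gene outside the naming rule.

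Among the rises, Aldh1l1 and Smpdl3a were low in clone 1 and alike in clone 3 and GFP. Aldh1l1, an enzyme of folate metabolism, had an RPKM of 24.5 and 19.9 in clone 3, 5.31 and 4.02 in clone 1, and 26.8 and 19.9 in GFP. Clone 1 lay below the other lines at both passages, with a log2 difference of 2.14 between the clones (SE 0.06, adjusted p = 0.00356, or 0.0646 without the block). Smpdl3a, a phosphodiesterase, had 8.05 and 10.4 in clone 3, 1.26 and 1.76 in clone 1, and 9.39 and 10.5 in GFP (log2 difference 2.28, adjusted p = 0.0117, or 0.0596 without the block).

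Gimap1 belongs to a cluster of small GTPase genes best known from lymphocytes. It had an RPKM of 3.88 and 5.42 in clone 3, 0.247 and 0.485 in clone 1, and 9.62 and 11.3 in GFP (log2 difference 2.57, SE 0.11, adjusted p = 0.0123, or 0.064 without the block). Of the 8 Gimap genes listed, 3 were high enough to test and all 3 were above 0, with a median of 2.01. Gimap9 had 3.29 and 3.96 in clone 3, 2.18 and 2.56 in clone 1, and 2.86 and 5.39 in GFP (adjusted p = 0.414). Of the 16 immune markers listed, 4 were at 0 in all libraries, the T cell markers Cd4 and Cd3d among them. Another 6 were high enough to test, Cd68 and Cd52 among them. The whole list summed to an RPKM of 6.25 to 9.31 in clone 3, 8.20 to 8.45 in clone 1 and 6.62 to 9.17 in GFP. The part of lymphocytes in the Gimap values was not tested.

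Other rises were higher in clone 3 than in both other lines. Emid1, which encodes an extracellular matrix protein, had an RPKM of 15.3 and 20.7 in clone 3, 3.24 and 4.46 in clone 1, and 0.417 and 1.28 in GFP (log2 difference 2.08, adjusted p = 0.0475, or 0.252 without the block). Aspg, an asparaginase, had 17.9 and 15.3 in clone 3, 6.34 and 4.34 in clone 1, and 0.970 and 0.611 in GFP (log2 difference 1.57, adjusted p = 0.0348, or 0.195 without the block). Syne4, a nuclear envelope protein that binds kinesin, had 10.1 and 13.4 in clone 3, 3.19 and 4.64 in clone 1, and 1.68 and 2.02 in GFP (log2 difference 1.47, adjusted p = 0.0378, or 0.195 without the block). For these 3 genes the lines stood in 3 steps within each passage. By mean level, clone 1 was the middle line for 11 of the 23 called rises (47.8%) and 12 of the 24 called falls (50%). Over all tested genes clone 1 was in the middle for 49.7% of those above 0 and 46.1% of those below. Snx20, a sorting nexin, had 23.5 and 20.3 in clone 3, 8.94 and 8.49 in clone 1, and 9.37 and 8.20 in GFP, so that clone 3 alone was high (log2 difference 1.28, adjusted p = 0.0176, or 0.0646 without the block).

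The remaining named rises spanned log2 differences of 0.98 to 2.02. They were Trim35 at 1.93, Nmral1 at 1.72, Fam32a at 0.99 and Slc25a23, a mitochondrial carrier, at 0.98, besides Piwil2, described with the genes that are on in 1 clone, and Mir7651. Fam32a had an RPKM of 55.0 and 53.6 in clone 3, 27.9 and 26.3 in clone 1, and 36.5 and 36.7 in GFP (adjusted p = 0.0145, or 0.0516 without the block). Mir7651 rested on 5 and 6 reads in clone 3 and 1 and 1 in clone 1, lies inside Zmiz2 on the same strand, and did not pass with voom (adjusted p = 0.178), so that its call is uncertain. A330102I10Rik, a gene outside the naming rule that was chosen after its values were seen, had the largest called rise, at 3.26: 4.64 and 7.60 in clone 3, 0.130 and 0.219 in clone 1, and 0.136 and 0.205 in GFP (adjusted p = 0.0308, or 0.0596 without the block). Its clone 3 libraries lay far above the 4 others.

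**Figure D4:**
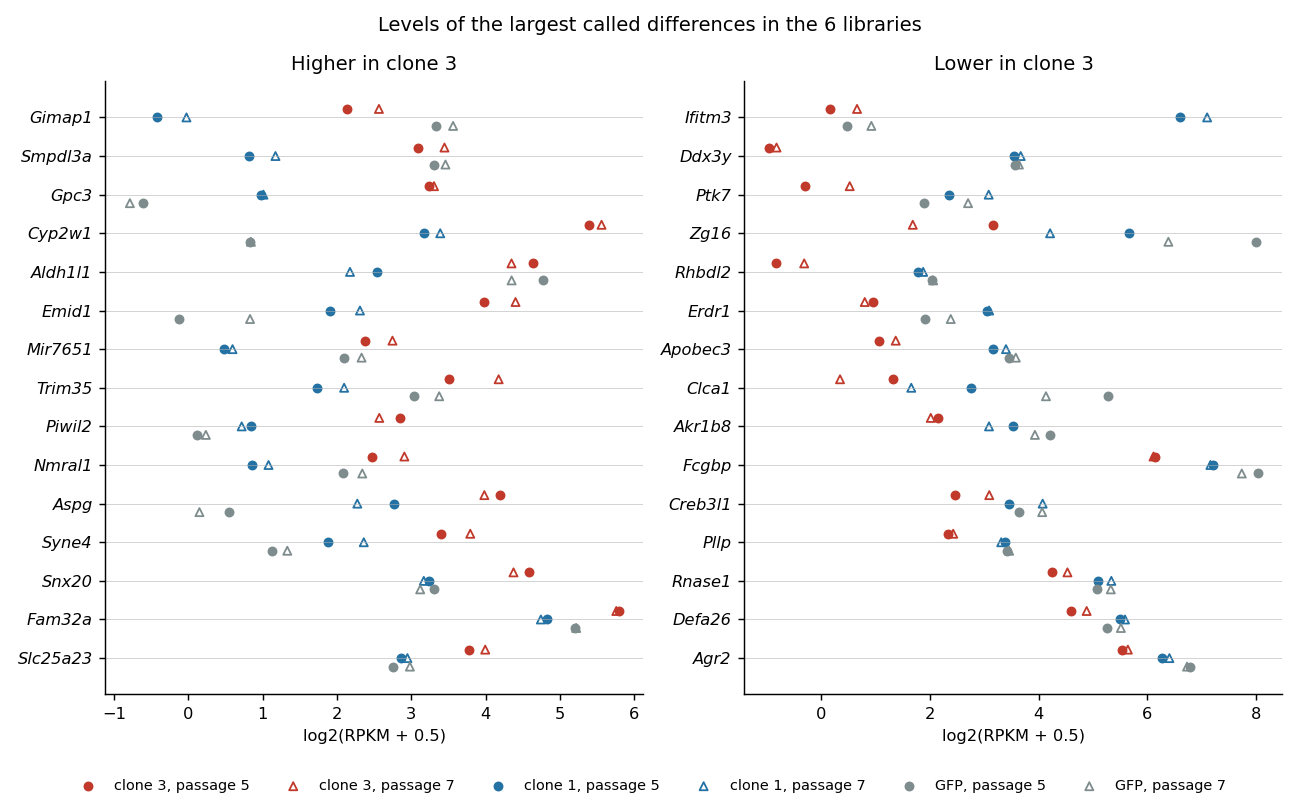
Levels as log2(RPKM + 0.5) in each library for the 15 largest called rises (left) and the 15 largest called falls (right) with a named gene symbol, with the lines in colour, passage 5 as circles and passage 7 as triangles. Cyp2w1, Gpc3, Emid1 and Aspg step down over clone 3, clone 1 and GFP, and Ifitm3 is high in clone 1 alone.

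The Cyp2w1 and Aldh1l1 promoters are shown because they are the 2 called genes with the largest rises whose window holds the PLAG element. The windows run from 250 bases before to 50 after the start of the RefSeq transcript on GRCm38.p6, with the gene's strand read 5′ to 3′, and lie at chr5:139352366-139352665 for Cyp2w1 and chr6:90550543-90550842 for Aldh1l1, both on the plus strand. The RefSeq start of Aldh1l1 lies inside the gene as GENCODE M21 bounds it. Capitals mark the bipartite PLAG1 consensus, 16 bases with a spacer of 7, which in both promoters reads on the opposite strand.
Cyp2w1: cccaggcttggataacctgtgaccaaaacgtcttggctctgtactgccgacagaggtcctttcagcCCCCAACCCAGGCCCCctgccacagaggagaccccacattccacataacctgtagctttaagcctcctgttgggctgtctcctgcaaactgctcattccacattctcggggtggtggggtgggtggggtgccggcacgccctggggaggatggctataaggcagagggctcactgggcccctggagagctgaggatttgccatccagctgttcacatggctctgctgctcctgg
Aldh1l1: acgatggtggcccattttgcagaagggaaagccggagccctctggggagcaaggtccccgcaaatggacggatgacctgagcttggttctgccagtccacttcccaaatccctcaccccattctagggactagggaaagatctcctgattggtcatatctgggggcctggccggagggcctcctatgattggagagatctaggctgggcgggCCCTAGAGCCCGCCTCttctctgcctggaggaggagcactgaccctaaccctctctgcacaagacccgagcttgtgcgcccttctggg
The match covers bases -184 to -169 in Cyp2w1 and -38 to -23 in Aldh1l1, counted from the start site as +1 with no base 0. On both strands, the consensus was found in 5 of the 14 called rises with a RefSeq window (35.7%), in 4 of the 14 called falls with one (28.6%), and in 1378 of 9943 tested genes with one (13.9%). The others with a match were Aspg, Slc25a23 and Glb1 among the rises, and Pllp, Gm1123, Apobec3 and Gm10451 among the falls. The element is GC-rich and can overlap GC boxes, which were not searched, and a match is a description and not a bound site.

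Genes were counted as on in 1 clone and off in the other when the RPKM was at least 1 in both libraries of the first and at most 0.1 in both libraries of the second. These levels choose the genes, so what follows is a description. On in clone 3 and off in clone 1 were 12 genes (0.0736% of those tested), and on in clone 1 and off in clone 3 were 10 (0.0613%). Of the 12, 6 had at least 20 reads in clone 3, and of the 10, 3 had at least 20 reads in clone 1. The others were mostly microRNA and small nuclear RNA genes or short pseudogenes with at most 10 reads in the clone where they were on, and libraries of this depth cannot tell such counts from few reads. At the edges of the rule, Kcns3 reached 0.0847 in the clone where it was off and Wnt5a, just outside, 0.182, while Ddx3y reached 0.0638 and Tbc1d21, just outside, 0.121.

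On in clone 3 alone among the 3 lines were Tdrd1 and Kcns3. Tdrd1, a Tudor protein that partners Piwi proteins in germ cells, had an RPKM of 1.65 and 2.83 in clone 3, 0.0106 and 0.0595 in clone 1, and a listed 0 and 0.0400 in GFP. In reads this was 150 and 232 in clone 3, 1 and 5 in clone 1, and 0 and 3 in GFP. Among its listed transcripts nearly all of the level was that of Tdrd1-003, with 1.19 and 2.09 in clone 3 and 0.0356 and 0.0725 in clone 1. Kcns3, a modulatory subunit of potassium channels, had 2.84 and 2.04 in clone 3, 0.0566 and 0.0847 in clone 1, and a listed 0 in both GFP libraries. Neither gene had an adjusted p under 0.05 in the fit over all genes (0.0756 for Tdrd1 and 0.0708 for Kcns3).

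Piwil2, a Piwi protein that binds small RNAs against transposons in germ cells, was among the called rises. It had an RPKM of 6.73 and 5.44 in clone 3, 1.30 and 1.15 in clone 1, and 0.588 and 0.679 in GFP, so that it was present in all 3 lines and highest in clone 3 (log2 difference 1.93, SE 0.16, adjusted p = 0.0475, or 0.0649 without the block). A list of 26 germline and piRNA pathway genes was chosen after values were seen. Only 7 were high enough to test, and 6 of the 26 were at 0 in all libraries. Of the 7, 1 was called higher and none lower, beside 0.141% and 0.147% of all tested genes, and the median was 0.23.

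Other genes that were on in clone 3 and off in clone 1 had reads in GFP. Gimap5, beside Gimap1 on chromosome 6, had an RPKM of 1.17 and 1.92 in clone 3, a listed 0 in both clone 1 libraries, and 3.02 and 5.00 in GFP. In the gene table it had 46 and 68 reads in clone 3 and none in clone 1, at least 39.2-fold higher in clone 3 against a floor of 3 reads over the clone, which covers counting error only. The transcript table differs: its protein-coding Gimap5-001 had 1.24 and 1.76 in clone 3 and a listed 0 in both clone 1 libraries, but its non-coding Gimap5-002 had 0.246 and 1.11 in clone 3 and 0.212 and 0.287 in clone 1. The bound therefore holds for the gene table and not for that transcript. Zfp951, a zinc finger gene, had 1.57 and 1.57 in clone 3, 0.0244 and 0.0411 in clone 1, and 1.40 and 1.64 in GFP. Gm7173 had 1.40 and 2.04 in clone 3, 0.0408 and 0.0686 in clone 1, and 0.978 and 0.923 in GFP. The remaining gene of this kind, Gm14403, had 1.52 and 2.32 in clone 3, 0.0697 and 0.0391 in clone 1, and 0.255 and 0.745 in GFP, lower in GFP than in clone 3. For all 4 the clones lay far apart at both passages.

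The 3 genes with at least 20 reads that were on in clone 1 and off in clone 3 had an RPKM of at least 0.5 in both GFP libraries. Ddx3y, a Y-linked RNA helicase, had an RPKM of 0.0115 and 0.0638 in clone 3, 11.2 and 12.2 in clone 1, and 11.3 and 11.9 in GFP. It had 1 and 5 reads in clone 3, against 1013 and 982 in clone 1 and 974 and 856 in GFP. Clone 3 stood alone, and in the fit over all genes the log2 difference was -4.51 (SE 0.09, adjusted p = 0.00192, or 0.00221 without the block). Gm4017 is a pseudogene inside Ddx3y on the same strand, with 9 and 12 reads in clone 1 and none in clone 3, and may share reads with it. Zcchc3, a zinc finger protein that senses nucleic acids, had 0.0195 and a listed 0 in clone 3, 1.03 and 1.18 in clone 1, and 0.941 and 1.51 in GFP.

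Other genes of the Y chromosome were present in clone 3. Eif2s3y, a translation initiation factor, had an RPKM of 21.4 and 21.7 in clone 3, 19.5 and 18.8 in clone 1, and 19.12 and 17.9 in GFP. Kdm5d, a histone demethylase, had 5.13 and 5.28 in clone 3, 3.81 and 4.82 in clone 1, and 4.94 and 5.52 in GFP. Uty, another demethylase family member, had 7.18 and 8.40 in clone 3, 6.40 and 8.38 in clone 1, and 7.11 and 7.93 in GFP. Reads of these 3 genes were thus present in clone 3 where those of Ddx3y were nearly absent, and Uty (chrY:1096861-1245759) lies beside Ddx3y (chrY:1260771-1286629).

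**Figure D5:**
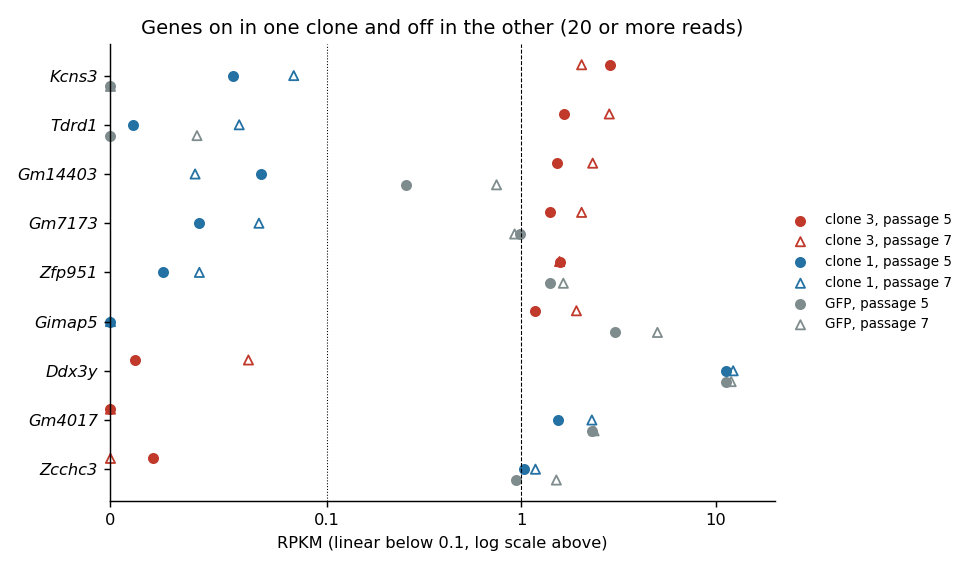
RPKM in each library, linear below 0.1 and on a log scale above, for the 9 genes on in 1 clone and off in the other with at least 20 reads in the clone where on. Dotted and dashed lines mark RPKM of 0.1 and 1. Tdrd1 and Kcns3 are off in GFP too, and Ddx3y, Gm4017 and Zcchc3 are off in clone 3 alone.

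Promoter windows of 4 genes that were nearly off in 1 clone are shown for their CpG content, which differed between them. They lie at chr7:141010695-141010994 on the minus strand for Ifitm3, chrY:1286564-1286863 on the minus strand for Ddx3y, chr19:56825959-56826258 on the plus strand for Tdrd1, and chr6:48745947-48746246 on the plus strand for Gimap5, from the same RefSeq table. Capitals mark each CpG, and none of the 4 held the PLAG1 consensus.
Ifitm3: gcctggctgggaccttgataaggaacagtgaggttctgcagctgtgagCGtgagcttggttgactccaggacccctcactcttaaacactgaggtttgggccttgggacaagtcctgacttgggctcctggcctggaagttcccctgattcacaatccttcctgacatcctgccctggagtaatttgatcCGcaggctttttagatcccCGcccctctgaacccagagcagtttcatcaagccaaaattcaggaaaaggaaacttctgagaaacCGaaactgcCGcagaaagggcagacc
Ddx3y: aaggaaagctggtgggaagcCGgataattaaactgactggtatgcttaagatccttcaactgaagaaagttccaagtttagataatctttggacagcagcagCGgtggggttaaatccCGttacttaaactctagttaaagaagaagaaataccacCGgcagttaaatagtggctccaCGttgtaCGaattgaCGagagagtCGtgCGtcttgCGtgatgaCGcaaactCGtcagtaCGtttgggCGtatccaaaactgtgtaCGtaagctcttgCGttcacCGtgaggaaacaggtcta
Tdrd1: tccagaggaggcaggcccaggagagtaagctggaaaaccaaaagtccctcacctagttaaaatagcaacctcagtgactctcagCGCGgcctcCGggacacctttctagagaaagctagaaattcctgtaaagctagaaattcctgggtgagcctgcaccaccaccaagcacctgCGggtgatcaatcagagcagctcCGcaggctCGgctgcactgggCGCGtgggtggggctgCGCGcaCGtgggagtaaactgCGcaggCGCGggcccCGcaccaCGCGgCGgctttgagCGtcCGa
Gimap5: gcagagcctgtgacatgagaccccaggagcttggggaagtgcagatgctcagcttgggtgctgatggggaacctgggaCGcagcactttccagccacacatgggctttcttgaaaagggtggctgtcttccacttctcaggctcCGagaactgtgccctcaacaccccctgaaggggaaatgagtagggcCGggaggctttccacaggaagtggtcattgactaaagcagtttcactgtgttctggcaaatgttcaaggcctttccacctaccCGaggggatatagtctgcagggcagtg
Ifitm3 held 5 CpG, Ddx3y 17, Tdrd1 20 and Gimap5 4. The median was 8 over the called rises, 8 over the called falls and 20 over all tested genes with a window, and 99.2% of all those windows held at least 1.

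The called genes were spread over the genome and not gathered on 1 chromosome. At least 1 lay on 17 of the 19 autosomes, with at most 6 on any of them, and the median log2 difference of an autosome ran from -0.0095 to 0.027. The chromosome with 6 was chromosome 8, where Defa26, Gm14851, Gm15284 and Pllp were lower and Snx20 and Fam32a higher. Of 25 tested genes of the mitochondrial genome 1 was called, mt-Tl1, a leucine transfer RNA, named after its values were seen. It had an RPKM of 30.4 and 27.4 in clone 3, 48.5 and 45.8 in clone 1, and 33.7 and 32.9 in GFP (log2 difference -0.70, adjusted p = 0.0348, or 0.128 without the block). Clone 1 alone was high, and with voom the gene did not pass (adjusted p = 0.176). The 8 tested mitochondrial genes that encode proteins held no call and had a median of -0.059. Among the 28 tested cytochrome P450 genes Cyp2w1 was the 1 called, and among 52 conjugating and reductase genes it was Akr1b8, with medians of 0.056 and -0.0034.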

How the data were processed

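Polyadenylated RNA of 6 libraries was measured, 2 each from clone 3, clone 1 and GFP. The authors deposited RPKM values per gene and per transcript, 1 value per library. The submitters' processing notes name mm10 as the build, and STAR, featureCounts of Subread, and edgeR as tools, without versions or settings. Of 41383 entries in the gene table, 614 repeated an identifier and were dropped. Genes were kept if 2 or more of the 6 libraries reached an RPKM of 0.5, and the value that decides this was 0.500014 in Kif1a, just inside, and 0.499886 in Gm6265, just outside.

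Values were taken as log2(RPKM + 0.5), which understates changes of low genes, and fitted with limma-trend (limma 3.58.1, R 4.3.3), two-sided, with line and passage as terms over all 6 libraries, and Benjamini-Hochberg adjustment over the 16314 genes at 0.05. The fit has passage as a block because the labels give each letter 1 passage in all lines. Same-letter deviations from the line means correlated at 0.322 (GFP and clone 1), 0.276 (GFP and clone 3) and 0.278 (clone 1 and clone 3). Scripts were tested on simulated data.

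Reads were recovered from the steps of the RPKM values with GENCODE M21 gene lengths. Within 0.02 of a read, 67.8% of 25468 nonzero genes came out whole with the annotated length and 31.9% with a fitted length. A listed 0 allows up to 3 reads, an RPKM of 0.173 to 0.218 for a gene of 1 kb. Coordinates are those of GENCODE M21 (GRCm38).

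Named genes were Plagl2, the 15 largest called rises and falls with a named symbol, the highest 10 genes on in 1 clone and off in the other, up to 4 called members of each list, and up to 2 of the highest members of lineage and pathway lists with none. Some genes that this rule picks are not reported here. Other genes are named as known members of their list, chosen with values seen. Of 979 listed symbols 973 were in the table. The comparison, the lists and the genes were chosen with earlier results of these data known, and no list was tested as a set.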

Additional observations from a re-analysis of the deposited data

How the results depend on the processing

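The fit with passage as a replicate block called 23 genes higher and 24 lower in clone 3. With no replicate block it called 1 higher and 3 lower, with no filter on low values 7 and 10, with the clone libraries alone 0 and 1 (796 and 666 at an unadjusted p under 0.05), and with no variance trend 0 and 5 (1016 and 771 unadjusted). A pseudocount of 0.1 gave 16 higher and 15 lower. Voom on the reads recovered here, over all 6 libraries, chosen once the data had been seen, gave 255 higher and 188 lower. With no replicate block voom gave 21 higher and 8 lower. Leaving out 1 library gave 0 to 0 higher and 0 to 4 lower, by limma-trend with 1 residual degree of freedom. A pseudocount of 1, a filter at an RPKM of 1, quantile normalization and median centring kept both counts within 1.5 times. Scaling moved the median log2 difference of all genes by -0.0226 (median centring) to 0.0025 (voom).

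Plagl2 passed with voom at a log2 difference of 0.37, and ranged from 0.26 to 0.48 without 1 library. With on at an RPKM of 2, 3 genes were on in clone 3 alone of the clones and 1 in clone 1. With off at a listed 0 there were 7 on in clone 3, of which Gimap5 had 114 reads there and the others 4 to 10. That setting also kept genes on in clone 1, which had from 2 reads (Gm27336) to 21 (Gm4017) there.

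Of 130 named genes, 14 near 0 changed sign somewhere. Without 1 library the log2 differences of 13 of them ranged from -0.31 to 0.034 (Bmp3), -0.15 to 0.066 (Bmpr1a), -0.067 to 0.19 (Ccnd2), -0.069 to 0.093 (Cldn2), -0.058 to 0.012 (Epcam), -0.064 to 0.056 (Erbb3), -0.19 to 0.058 (Fzd5), -0.23 to 0.099 (Hmgcs1), -0.025 to 0.14 (Ifitm2), -0.044 to 0.064 (Lrp6), -0.18 to 0.0060 (Olfm4), -0.013 to 0.17 (Uty) and -0.075 to 0.080 (Wwc1). Median centring gave -0.010 for Cldn2, -0.013 for Lrp6, -0.0056 for Mki67 and -0.020 for Wwc1. Quantile normalization gave 0.087 for Epcam, 0.021 for Erbb3 and 0.043 for Olfm4, and voom gave -0.0027 for Wwc1. The causes were not tested. With 2 libraries a line, depth limits genes of few reads.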
